A study of Saccharomyces cerevisiae with 12 samples.

Results

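The 10 genes described here encode RNA-binding proteins and mRNA decay factors of budding yeast, and were chosen by name from the 7130 gene identifiers counted in the series. They are the decapping activators DHH1 and PAT1, the exonuclease XRN1, the repressors PUF3 and SSD1, the RNA-recognition-motif proteins PUB1 and NGR1, the La-motif proteins SLF1 and SRO9 and the nuclear poly(A)-binding protein NAB2. RNA-seq of fragmented poly(A)-selected RNA and ribosome profiling, which sequences the stretches of mRNA that ribosomes protect from nuclease (footprints), gave 12 libraries in 4 groups of 3. In the pre-treated groups, Saccharomyces cerevisiae cultures had grown overnight with 10 µM radicicol, which inhibits Hsp90. The untreated groups came from cultures without the drug. The cultures of both treatments descended from 3 colonies, were diluted to an OD600 of 0.001 and regrew for 24 h before harvest, and the protocols mention the drug only for the earlier growth. The title of the series places the question in translation that stays changed after a transient loss of Hsp90 activity. The strain and the density at harvest are not given in the sources used here.

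Cytoplasmic mRNA decay in yeast usually begins with shortening of the poly(A) tail, after which the cap is removed and the message is degraded from its 5′ end. Dhh1, a DEAD-box helicase, and Pat1, a scaffold that binds the Lsm1-7 ring, repress translation and promote decapping, and Xrn1 degrades the decapped RNA. Other members choose which messages are acted on: Puf3 binds mRNAs for mitochondrial proteins, Ssd1 binds mRNAs for cell wall proteins, and Pub1 binds U-rich elements and enters stress granules. Sro9 and its paralog Slf1 associate with translating ribosomes, and Nab2 coats poly(A) tails in the nucleus, limits their length and accompanies mRNA through the nuclear pore.

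Among these regulators 1 gene was called in RNA and another in footprints. NAB2 footprints were 1.65-fold higher after radicicol (log2 0.72, SE 0.14, n = 3 each, adjusted p = 0.000607), while its RNA had a log2 difference of -0.02 (SE 0.13). Without pairing of libraries, the test of the difference between NAB2 footprints and RNA was not passed (adjusted p = 0.184). NGR1 RNA fell by 0.37 on the log2 scale (SE 0.12, adjusted p = 0.0389). The NGR1 call held under 6 of 13 alternative settings, and that of NAB2 footprints under all 13. In edgeR's quasi-likelihood test with p-values adjusted over all genes tested, 1 of the 10 members was called in RNA, beside 13.2% of all 5578 genes. It was lower, as were 6.06% of all genes, and 0 members were higher, beside 7.17%. In footprints 1 of the 10 was called, beside 13.4% of 5090 genes. It was higher, as were 8.53% of all, and 0 members were lower, beside 4.85%. At an unadjusted p below 0.05 there were 4 members in RNA, beside 26.2% of all genes, and 4 in footprints, beside 25.1%. The shares called are near the background of both comparisons.

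Each library held between 737922 and 2481336 counts, the lowest in untreated RNA replicate 3 and the next lowest 1155966. The 10 genes together took between 0.135% and 0.151% of the counts of an RNA library and between 0.192% and 0.207% of those of a footprint library. Every member is annotated as 1 exon feature that overlaps no other feature on either strand. Levels are given in CPM, read counts scaled to a common library total with TMM factors within the 6 libraries of a type, and so describe a gene's share of its library, not an absolute amount. In such bulk lysates a change in the mix of cells and a change in RNA per cell cannot be told apart. The labels do not say whether libraries of different number came from different colonies, so p-values measure the spread between these libraries.

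DHH1 (YDL160C, chromosome IV, 170410 to 171930), on the R64-1-1 build as for every position here, had 41.5, 49.1 and 50.8 CPM in the RNA of pre-treated cultures and 39.9, 33.3 and 34.3 CPM in that of untreated ones. The pre-treated libraries were all above the untreated ones, though the gap between the nearest pair was narrow. The log2 difference of 0.38 (SE 0.16) missed the threshold (adjusted p = 0.119), and the values rest on 103 to 109 counts a library after radicicol and on 26 to 76 without it. Footprints on DHH1 came to 141, 132 and 136 CPM in pre-treated cultures and 120.0, 108 and 118 CPM in untreated ones. The groups were again apart in the same direction, with a log2 difference of 0.24 (SE 0.11, adjusted p = 0.142).

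PAT1 (YCR077C, chromosome III, 250238 to 252628) had 168, 161 and 185 CPM in pre-treated RNA and 162, 181 and 144 CPM in untreated RNA. Its footprints were 219 ± 10.4 CPM in pre-treated cultures and 219 ± 17.3 CPM in untreated cultures (SD, n = 3 each). The groups overlapped in both kinds of library, and the 95% interval of the log2 difference ran from -0.17 to 0.29 in RNA and from -0.20 to 0.20 in footprints. XRN1 (YGL173C, chromosome VII, 175527 to 180113), the longest member with 4587 bases, gave 213, 223 and 219 CPM in pre-treated RNA and 222, 212 and 202 CPM in untreated RNA. Its footprints were 178 ± 6.07 CPM after radicicol and 179 ± 25.2 CPM without it. These groups overlapped as well, with intervals of -0.17 to 0.24 in RNA and -0.22 to 0.22 in footprints.

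PUF3 (YLL013C, chromosome XII, 122075 to 124714) had 60.5, 90.6 and 85.5 CPM in pre-treated RNA and 109.6, 94.7 and 109.6 CPM in untreated RNA. Pre-treated replicate 1 was the lowest, and the groups did not overlap. The log2 difference of -0.40 (SE 0.14) just missed the threshold (adjusted p = 0.0647), and it passed with upper-quartile scaling (adjusted p = 0.0424) or with no filter on low counts (adjusted p = 0.0404), but not with DESeq2 (adjusted p = 0.151). PUF3 footprints were 119, 99.9 and 127 CPM in pre-treated cultures and 129, 129 and 132 CPM in untreated cultures. They were lower in each pre-treated library, by a log2 difference of -0.17 (SE 0.11, adjusted p = 0.378).

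SSD1 (YDR293C, chromosome IV, 1045640 to 1049392), a long gene with 302 to 932 counts in every library, gave 376, 352 and 415 CPM in pre-treated RNA and 432, 347 and 399 CPM in untreated RNA. Footprints were 497, 504 and 517 CPM after radicicol and 545, 553 and 489 CPM without it. Groups overlapped in both, and the log2 difference had an interval of -0.26 to 0.17 in RNA and -0.24 to 0.11 in footprints.

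PUB1 (YNL016W, chromosome XIV, 602907 to 604268) had 223, 197 and 187 CPM in pre-treated RNA and 239, 246 and 238 CPM in untreated RNA. All pre-treated libraries were lower, and the untreated ones lay within a few CPM of each other. That spread, 1.75% of the mean, is smaller than the 5.72% that counting alone gives, so it understates the uncertainty. The log2 difference was -0.25 (SE 0.10, adjusted p = 0.108). Footprints on PUB1 overlapped between the groups, at 473, 437 and 450.3 CPM after radicicol and 444, 436 and 454 CPM without it, with an interval of -0.14 to 0.20 for the log2 difference. NGR1 (YBR212W, chromosome II, 647886 to 649904), whose protein promotes decay of the mRNA of the mitochondrial porin gene POR1, had 109.7, 129 and 122 CPM in pre-treated RNA and 172, 131 and 168 CPM in untreated RNA. Untreated replicate 2 came close to the pre-treated libraries, which were all lower. The log2 difference of -0.37 was called, but DESeq2 did not call it (adjusted p = 0.0977). The call also ended without pre-treated RNA replicate 1, 2 or 3 (adjusted p = 0.181, 0.0726 and 0.0917) and without untreated RNA replicate 1 or 3 (adjusted p = 0.191 and 0.108). NGR1 footprints were 168, 155 and 153 CPM in pre-treated cultures and 182, 182 and 188 CPM in untreated cultures. They too were lower in every pre-treated library (log2 -0.22, SE 0.10, adjusted p = 0.159).

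Of the La-motif paralogs, SLF1 (YDR515W, chromosome IV, 1473429 to 1474772), which is also known for a role in copper tolerance, was the member with the fewest reads, at 16 to 64 counts an RNA library and 38 to 53 counts a footprint library. It had 24.6 ± 1.19 CPM in pre-treated RNA and 26.7 ± 4.99 CPM in untreated RNA, and its footprints were 33.2 ± 1.09 CPM in pre-treated cultures and 33.5 ± 2.97 CPM in untreated cultures (SD, n = 3 each). With intervals of -0.56 to 0.20 in RNA and -0.37 to 0.34 in footprints, a change of moderate size was not detectable at this depth. SRO9 (YCL037C, chromosome III, 57374 to 58678) had 48.4, 36.1 and 46.1 CPM in pre-treated RNA and 49.8, 41.4 and 43.6 CPM in untreated RNA, which overlapped. Its footprints were 103, 104 and 94.3 CPM after radicicol and 72.0, 76.6 and 86.1 CPM without it, higher in each pre-treated library. The log2 difference of 0.36 (SE 0.12) missed the threshold (adjusted p = 0.0525), and passed without untreated footprint replicate 3 (adjusted p = 0.0495) or with no filter on low counts (adjusted p = 0.0478). These were the only 2 of 13 alternatives that called it, and DESeq2 gave an adjusted p = 0.226. Per base of coding sequence, SRO9 footprints were 3.07, 3.24 and 3.01 times those of SLF1 in pre-treated libraries and 2.44, 2.33 and 2.44 times in untreated libraries. In RNA the same ratio overlapped between treatments, at 1.93, 1.58 and 1.94 in pre-treated libraries and 1.81, 1.39 and 2.12 in untreated libraries. The footprint ratios rest on the 38 to 53 SLF1 counts a library. Counting alone gives SLF1 footprints a spread of about 14.1% of the mean in pre-treated and 15.2% in untreated libraries. A difference in the ratio was not tested.

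NAB2 (YGL122C, chromosome VII, 278946 to 280523) is known in yeast to limit its own mRNA through an A-rich stretch of its 3′ untranslated region. Its RNA was 79.9, 90.2 and 95.9 CPM in pre-treated cultures and 97.6, 90.6 and 76.6 CPM in untreated cultures, and these values overlapped. Footprints on NAB2 were 106, 105 and 87.0 CPM after radicicol, from 154, 155 and 143 counts, and 51.2, 71.1 and 56.6 CPM without it, from 64, 105 and 67 counts. The lowest pre-treated library lay above the highest untreated one, and the means were 99.2 ± 10.6 and 59.6 ± 10.3 CPM in pre-treated and untreated cultures (SD, n = 3 each). The log2 difference in footprints was larger than that of 96.1% of the genes tested. It was called under all 13 alternatives, with values between 0.62 and 0.88 and adjusted p between 1.29e-05 and 0.0105, DESeq2 and each left-out library included. The interval of the RNA difference, -0.29 to 0.24, does not reach the lower end of the footprint interval, 0.43 to 1.01, but the test of the difference between them, as translational efficiency, passed under no setting tried except the one that pairs RNA with footprint libraries by number.

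**Figure D1:**
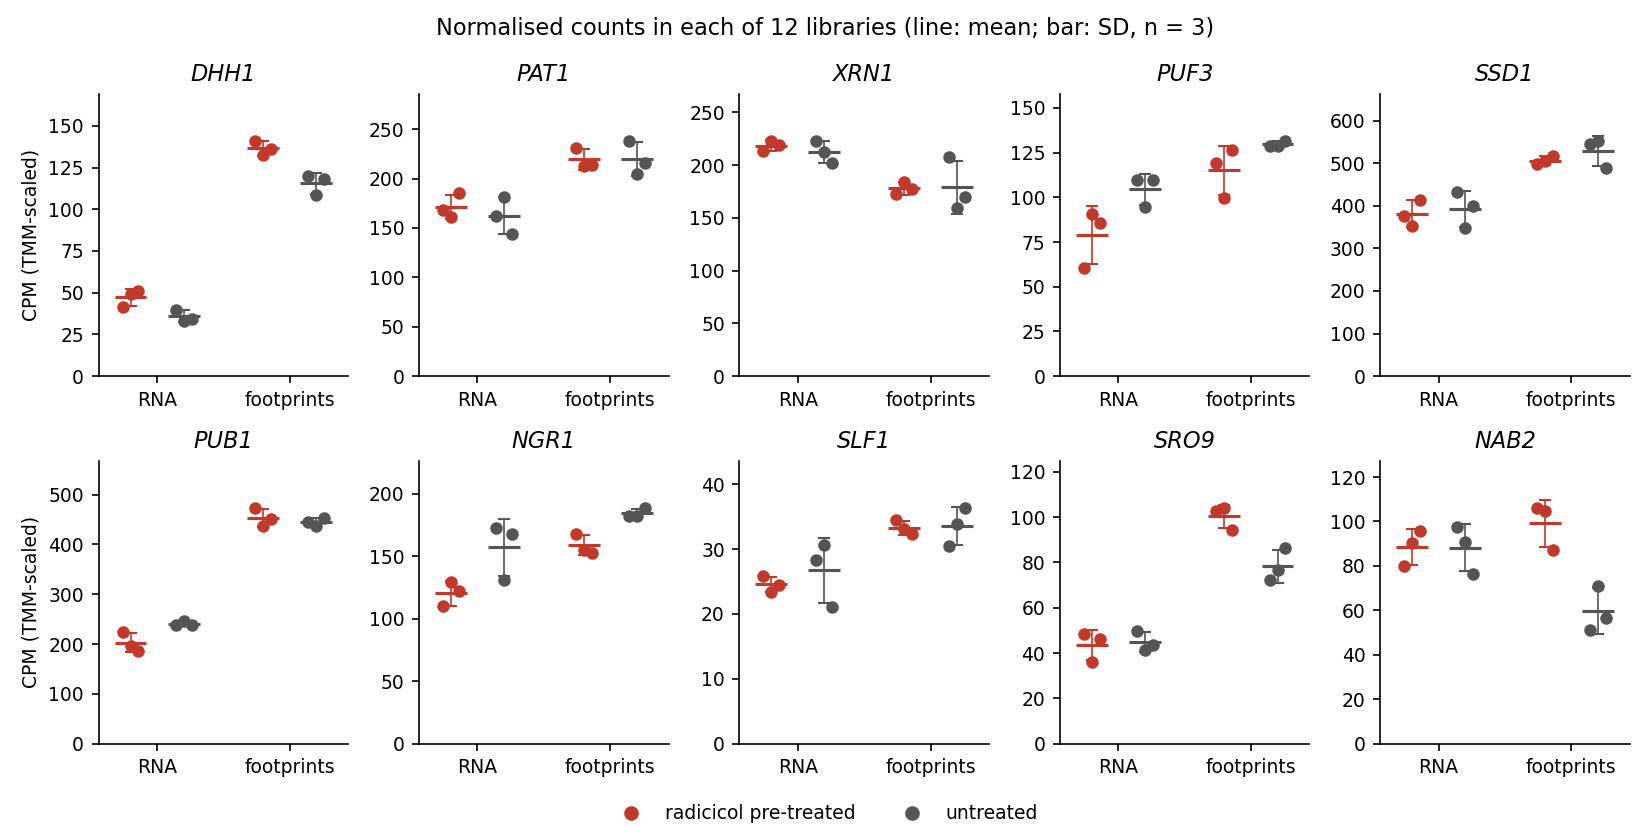
Normalised counts (CPM, vertical axis from 0) of each member in every library, pre-treated cultures in red to the left of untreated cultures in grey, for RNA and for footprints. Points are libraries, horizontal lines means and bars SD (n = 3). NAB2 footprints, at 87.0 to 106 CPM after radicicol and 51.2 to 71.1 CPM without it, are the widest separation, and SSD1, PAT1 and XRN1 overlap throughout.

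**Figure D2:**
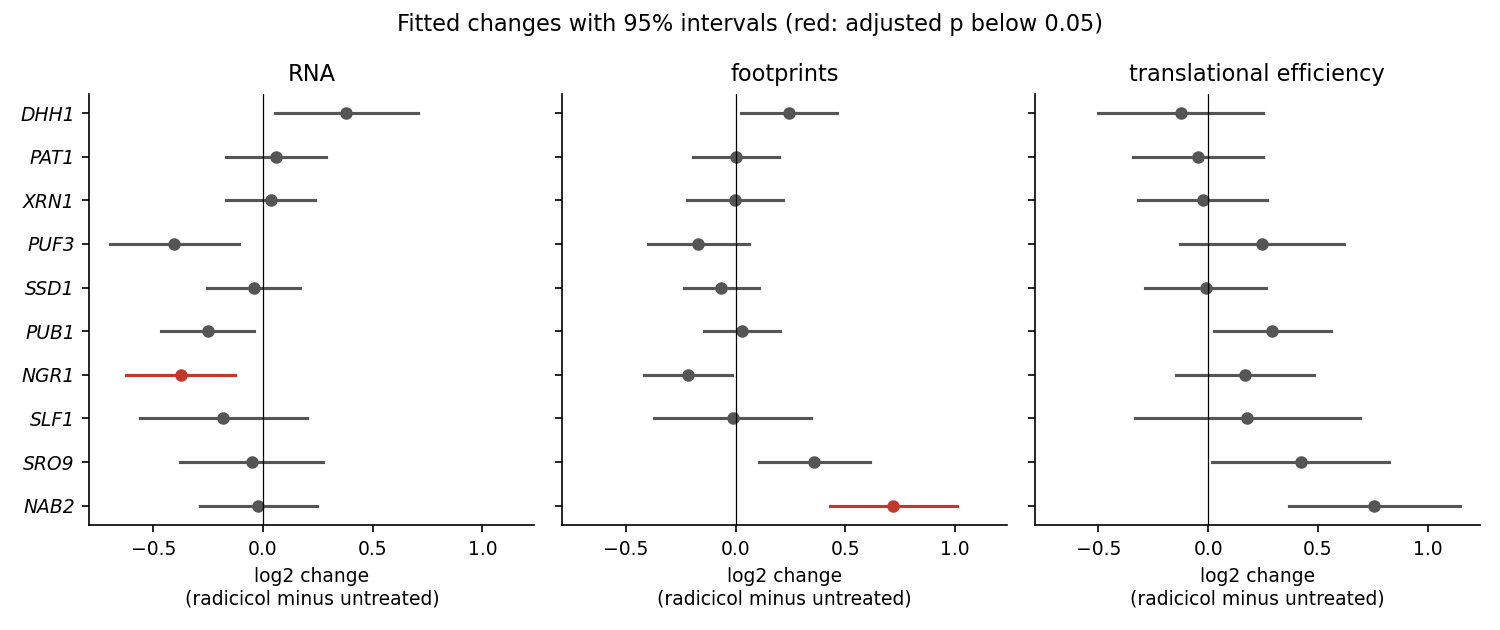
Log2 differences, radicicol minus untreated (horizontal axis), for the 10 members in RNA, footprints and translational efficiency. Points are fitted values and lines 95% intervals, in red where the adjusted p is below 0.05, as for NGR1 in RNA and NAB2 in footprints. Intervals of PAT1, XRN1, SSD1 and SLF1 include 0 in all 3 panels.

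In RNA the pre-treated and untreated libraries did not overlap for 4 of the 10 members, beside 30.0% of all genes. They were DHH1, which was higher (16.2% of all genes), and PUF3, PUB1 and NGR1, which were lower (13.8% of all genes). In footprints 5 did not overlap, beside 29.4% of all genes. DHH1, SRO9 and NAB2 were higher (15.9% of all genes) and PUF3 and NGR1 were lower (13.6% of all genes). The log2 differences in RNA ran from -0.40 (PUF3) to 0.38 (DHH1) with a median of -0.05, and that of all genes was -0.002. In footprints they ran from -0.22 (NGR1) to 0.72 (NAB2), with a median of -0.001 beside -0.01 for all genes. DHH1, PUF3 and NGR1 had groups apart in the same direction in both kinds of library. NAB2 and SRO9 overlapped in RNA, and PUB1 overlapped in footprints.

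**Figure D3:**
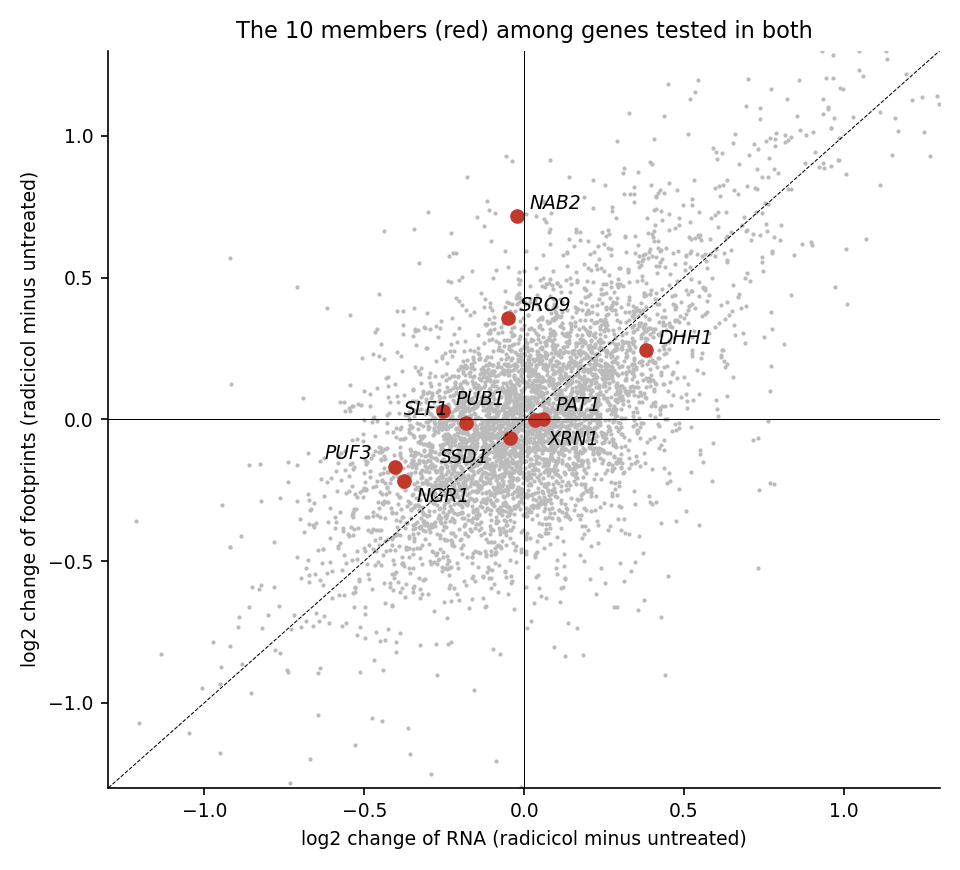
Log2 differences, radicicol minus untreated, of RNA (horizontal axis) and of footprints (vertical axis) for 5070 genes tested in both (grey) and the 10 members (red). The dashed line marks equal differences, and 57 genes lie beyond the axes. NAB2 stands at -0.02 in RNA and 0.72 in footprints, SRO9 is the next above the line, and PUF3 and NGR1 lie in the lower left.

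Translational efficiency is the ratio of footprints to RNA, and its change was tested in a single model of the 12 libraries, in which the effect of radicicol may differ between RNA and footprints. Without pairing of libraries, no member passed with edgeR (0 of 10) or with DESeq2 (0 of 10), where edgeR called 0.0180% of 5552 genes, which is 1 gene. At an unadjusted p below 0.05 there were 3 members, NAB2, SRO9 and PUB1, all higher after radicicol, beside 7.91% of all genes. The change for NAB2 was 0.76 on the log2 scale (SE 0.19, adjusted p = 0.184), larger than that of 97.4% of genes, and NAB2 ranked 10th by p. When the RNA and footprint libraries of the same treatment and number were taken as 1 culture, which the labels do not state, NAB2 passed (log2 0.74, adjusted p = 0.0484), and 29 genes were called in all. For SRO9 it was 0.42 (SE 0.20, adjusted p = 0.608) and for PUB1 0.29 (SE 0.13, adjusted p = 0.568). The other members ranged from -0.13 (DHH1) to 0.24 (PUF3), with SE between 0.14 and 0.25.

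Most of these messages carried more footprints per RNA than the median gene. The level of translational efficiency is given as a log2 ratio within each pair of RNA and footprint libraries of the same treatment and number, less the median gene of that pair. 9 of the 10 members after radicicol and 8 without it lay above the upper quartile of all genes, 0.47 in pre-treated and 0.46 in untreated cultures. DHH1 had the highest level, 1.97 ± 0.20 in pre-treated cultures and 2.11 ± 0.11 in untreated cultures (SD, n = 3 each), above 99.5% and 99.6% of 5362 protein-coding genes. Its RNA was among the scarcest of the set and its footprints were of middle abundance. The level of PUB1 was 1.61 ± 0.09 after radicicol and 1.32 ± 0.06 without it, and that of SRO9 was 1.65 ± 0.28 and 1.23 ± 0.25 in pre-treated and untreated cultures.

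At the other end stood XRN1 and NAB2. XRN1 was near the median gene, at 0.14 ± 0.03 in pre-treated and 0.18 ± 0.14 in untreated cultures, above 57.2% and 58.6% of protein-coding genes. NAB2 gave 0.85, 0.67 and 0.29 in the pre-treated pairs and -0.51, 0.09 and 0.01 in the untreated pairs. The groups did not overlap, and its mean stood above 80.1% of protein-coding genes after radicicol and above 40.7% without it. Groups also did not overlap for PUB1 and SRO9, so 3 members were apart, beside 15.3% of all genes. All 3 were higher after radicicol, beside 8.56% of all genes, and 0 were lower, beside 6.70%. The mean levels of PAT1, SSD1, SLF1, PUF3 and NGR1 lay between 0.67 and 1.00 in both treatments.

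**Figure D4:**
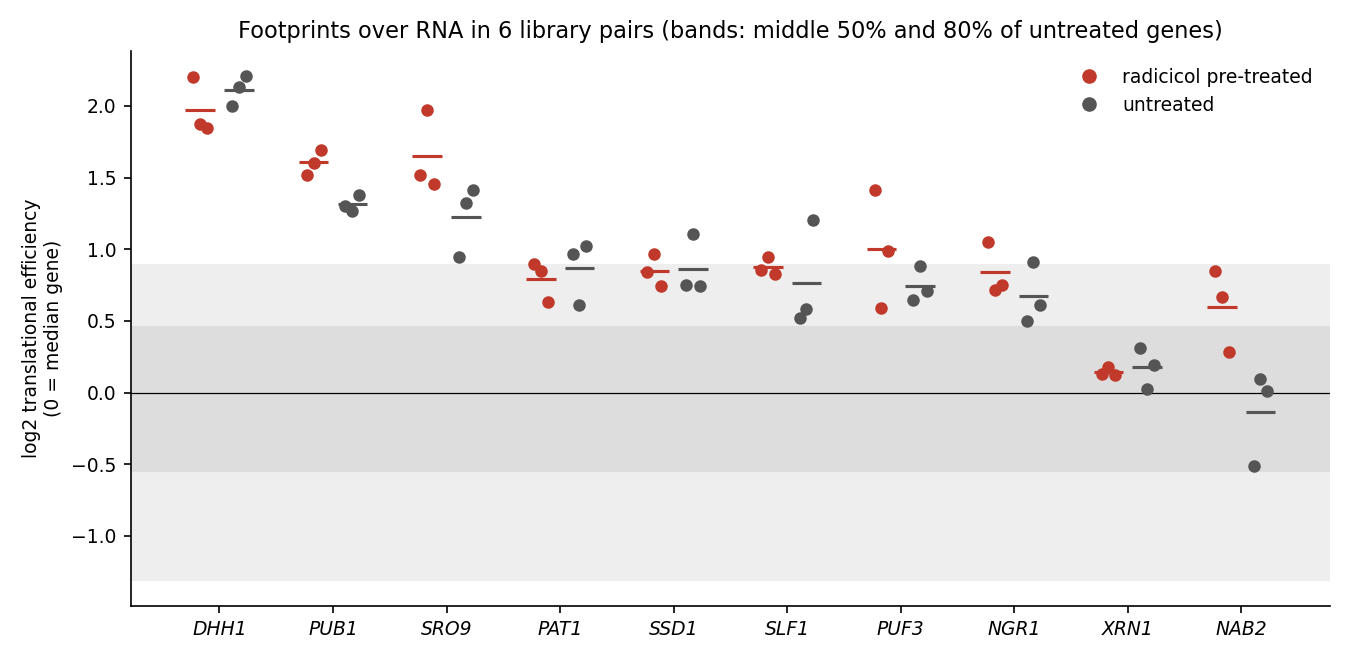
Log2 translational efficiency (vertical axis, 0 is the median gene) in the 3 pre-treated (red, left) and 3 untreated (grey, right) library pairs of each member, with group means as lines. The darker and lighter bands hold the middle 50% and 80% of genes in untreated cultures. DHH1, PUB1 and SRO9 have means above the bands in both treatments, XRN1 lies within the darker one, and NAB2 is the member whose mean leaves the darker band after radicicol.

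Per kilobase of coding sequence, PUB1 was the most abundant member in every group. Its RNA was 164, 144 and 137 CPM per kilobase in pre-treated libraries and 176, 180.3 and 174 in untreated libraries, and its footprints were 333 ± 13.2 and 326 ± 6.32 in pre-treated and untreated libraries (SD, n = 3 each). SSD1 was next in all 4 groups and SLF1 was last in all 4, with RNA at 18.3 ± 0.886 CPM per kilobase in pre-treated and 19.9 ± 3.71 in untreated libraries. In pre-treated RNA the order below SSD1 was PAT1, NGR1, NAB2, XRN1, SRO9, DHH1 and PUF3, and ranges overlapped between the neighbours NGR1 and NAB2, SRO9 and DHH1, and DHH1 and PUF3. In untreated RNA it was NGR1, PAT1, NAB2, XRN1, PUF3, SRO9 and DHH1, and ranges overlapped between NGR1 and PAT1, PAT1 and NAB2, PUF3 and SRO9, and DHH1 and SLF1.

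In footprints the order below SSD1 was PAT1, DHH1, NGR1, SRO9, NAB2, PUF3 and XRN1 after radicicol, with overlap between PAT1 and DHH1, NGR1 and SRO9, and PUF3 and XRN1. Without the drug it was PAT1, NGR1, DHH1, SRO9, PUF3, XRN1 and NAB2, with overlap between PAT1 and NGR1 and between XRN1 and NAB2. DHH1 thus stood 8th in pre-treated and 9th in untreated RNA but 4th and 5th in the footprints of pre-treated and untreated cultures. NAB2 stood 5th in RNA in both treatments, and 7th and 9th in the footprints of pre-treated and untreated cultures. Scaling as TPM multiplies each library by a single factor, so it cannot change the order within a library. The order of group means was the same as well.

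The genes whose levels over the 12 libraries, centred within library type, ran most like those of NAB2 were GAS1 (Pearson r = 0.95), a cell wall glucan-remodelling enzyme gene, and BMH1 (r = 0.92), a 14-3-3 protein gene. GAS1 had log2 differences of -0.02 in RNA and 0.43 in footprints (adjusted p = 0.000628). BMH1 had -0.03 in RNA and 0.19 in footprints, neither called (adjusted p = 0.863 and 0.109). For NGR1 the nearest genes were the kinase gene AKL1 (r = 0.96) and SKG3 (r = 0.96), with log2 RNA differences of -0.22 and -0.47, neither called (adjusted p = 0.153 and 0.0572). These are the nearest of 5070 genes over libraries that share treatment and depth, and are given as a description.

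The other genes of these pathways were taken from 9 lists with 141 genes, all compiled with earlier results of these data known. Of the 141, RNA was called higher for 7 and lower for 8, together 10.6%, near the 13.2% of all genes. Of 140 tested in footprints, 17 were higher and 4 lower, together 15%, beside 13.4% of all genes (8.53% higher and 4.85% lower). Of the 17, 10 belonged to a single list, that of Ssd1-bound messages. For translational efficiency 0 of 141 were called with edgeR or DESeq2, where edgeR called only 0.0180% of all genes.

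For the lists that follow, the shares over all genes are 13.2% called in RNA and 13.4% in footprints, and 26.2% and 25.1% at an unadjusted p below 0.05. Of 21 genes of decapping and decay from the 5′ end, 0 were higher in RNA and 1 was lower, EDC1, a decapping enhancer gene, at 70.4 ± 4.42 CPM in pre-treated and 94.3 ± 18.5 CPM in untreated cultures (log2 -0.45, SE 0.14, adjusted p = 0.0274). DESeq2 called 0 of them in RNA. In footprints edgeR and DESeq2 called 0 of the 21, with 1 at an unadjusted p below 0.05. EDC1 footprints went the other way from its RNA, at 76.2 ± 4.60 CPM in pre-treated and 64.9 ± 6.37 CPM in untreated cultures. That difference was not called (log2 0.22, SE 0.13, adjusted p = 0.314). Neither was the change in EDC1 translational efficiency (log2 0.69, SE 0.19, adjusted p = 0.239). Of 12 deadenylation genes, 0 were called in RNA by either tool (1 unadjusted), and in footprints 1 was lower, the deadenylase gene CCR4 (log2 -0.32, SE 0.10, adjusted p = 0.0408). Among 18 exosome and Ski genes the core subunit gene RRP46 was lower in RNA (log2 -0.47, SE 0.14) and the cofactor gene LRP1 was higher in footprints (log2 0.74, SE 0.25, adjusted p = 0.0475). LRP1 footprints were few, at 24.2 ± 5.09 CPM in pre-treated and 14.5 ± 2.71 CPM in untreated cultures. Of 5 genes of nonsense-mediated decay, which removes messages with early stop codons, 0 were called in RNA or footprints by either tool, with 1 at an unadjusted p below 0.05 in each. Their median log2 difference was -0.04 in RNA and -0.31 in footprints, where 1 of the 5 was above 0.

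DESeq2 called none of EDC1, CCR4, RRP46 and LRP1 (adjusted p = 0.0912, 0.155, 0.0967 and 0.205). With the replicate number as a block the calls of CCR4, RRP46 and LRP1 ended (adjusted p = 0.055, 0.0522 and 0.0511). That of LRP1 ended with upper-quartile factors too (adjusted p = 0.0645). Without pre-treated RNA replicate 2 the calls of EDC1 and RRP46 ended (adjusted p = 0.105 and 0.134), and without pre-treated footprint replicate 1 those of CCR4 and LRP1 did (adjusted p = 0.17 and 0.203). Leaving out any of several other libraries ended these calls as well. The direction of list calls in RNA was not stable either. Without untreated RNA replicate 1, the decapping list had 1 gene higher and 0 lower. Without untreated RNA replicate 2, the exosome and Ski list had 1 higher, LRP1 (log2 0.68, adjusted p = 0.0485), and 0 lower. Without untreated footprint replicate 1, 3 deadenylation genes were called in footprints, and 1 gene of nonsense-mediated decay was called in RNA without untreated replicate 1 or in footprints without pre-treated replicate 1.

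Of 24 genes of nuclear mRNA packaging and export, 1 was higher in RNA, the export helicase gene SUB2 (log2 0.31, SE 0.10, adjusted p = 0.042), and 0 were lower. This call ended with upper-quartile factors (adjusted p = 0.0701), with DESeq2 (adjusted p = 0.106) and without each of 5 of the 6 RNA libraries, untreated replicate 2 being the exception. The direction of calls in this list also varied. In RNA, upper-quartile factors gave 0 higher and 2 lower, and no filter on low counts gave 1 of each. Without pre-treated RNA replicate 1 there were 0 higher and 1 lower, and without untreated RNA replicate 2 there were 2 higher and 0 lower. In footprints 2 were higher, the export adaptor gene YRA1 (245 ± 24.8 CPM in pre-treated and 185 ± 15.4 CPM in untreated cultures, adjusted p = 0.00594) and NPL3, which encodes a shuttling mRNA-binding protein (212 ± 11.2 and 162 ± 19.2 CPM in pre-treated and untreated cultures, adjusted p = 0.0115). Both calls ended without pre-treated footprint replicate 2 (adjusted p = 0.0846 for YRA1 and 0.0949 for NPL3). The median of the list was 0.01 in RNA and in footprints.

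Of 35 other mRNA-binding proteins, 2 were higher and 5 lower in RNA, and of 34 tested in footprints 4 were higher and 3 lower, beside 13.2% of all genes called in RNA and 13.4% in footprints. BFR1, whose protein binds mRNAs at the endoplasmic reticulum, had 301 ± 31.7 CPM of footprints in pre-treated and 175 ± 5.75 CPM in untreated cultures (log2 0.79, SE 0.10, adjusted p = 1.4e-06), and its RNA was higher as well (log2 0.41, SE 0.12). The helicase gene DED1 and SCP160, whose protein partners Bfr1, were higher in footprints (log2 0.39 and 0.34). TIS11, which encodes a protein that destabilises mRNAs of iron-using proteins, was lower in RNA, at 394 ± 31.5 CPM in pre-treated and 566 ± 44.5 CPM in untreated cultures (log2 -0.53, SE 0.10, adjusted p = 0.000477). RIE1 was lower in RNA and footprints (log2 -0.35 and -0.35), and PSP1 was lower in footprints (log2 -0.30). ASC1, a ribosome-associated protein gene, was higher in RNA (log2 0.34), and WHI4 and PIN4 were lower there (log2 -0.44 and -0.42). The remaining gene called lower in RNA was PAB1 (log2 -0.34, SE 0.10, adjusted p = 0.0205), whose footprints were not called (log2 0.03, SE 0.08). Without pre-treated RNA replicate 2 only TIS11 was called in RNA, and BFR1, ASC1, RIE1, WHI4 and PIN4 were not (adjusted p = 0.108, 0.09, 0.108, 0.102 and 0.107). In footprints TIS11 was also lower (log2 -0.26, adjusted p = 0.0353) and ASC1 higher (log2 0.31, adjusted p = 0.0228). Without pre-treated footprint replicate 2 the footprint calls of SCP160, PSP1 and TIS11 ended (adjusted p = 0.132, 0.22 and 0.177). Leaving out any of several other libraries ended those of PSP1, TIS11 and ASC1. DESeq2 did not call SCP160, PSP1, TIS11 or ASC1 in footprints (adjusted p = 0.0589, 0.115, 0.0633 and 0.0682). DESeq2 called 4 of the 35 in RNA and 3 of the 34 in footprints.

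Relatives and targets of 2 members were looked at separately. Of 6 other PUF proteins, PUF6 was lower in RNA (log2 -0.54, SE 0.16, adjusted p = 0.0245; DESeq2 adjusted p = 0.0883; without pre-treated RNA replicate 2 adjusted p = 0.185) and 0 were called in footprints by either tool (0 unadjusted). Of 10 mRNAs known as Puf3 targets, among them the copper chaperone gene COX17 and mitochondrial ribosomal protein genes, 0 were called in RNA or footprints by edgeR or DESeq2, with 1 at an unadjusted p below 0.05 in each. Leaving out untreated RNA replicate 2 or pre-treated footprint replicate 2 gave 1 call. Their median log2 difference was -0.06 in RNA and -0.26 in footprints, beside -0.002 and -0.01 for all genes.

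All genes of the list of Ssd1-bound messages were called higher in footprints, while SSD1 itself was not called. Its genes are CTS1, SUN4, SIM1, UTH1, SRL1, SCW4, SCW10, DSE2, TOS6 and the G1 cyclin gene CLN2, most of them for secreted or cell wall proteins. They were compiled from general knowledge with earlier results of these data known, the rise of DSE2 among them. The list is therefore not independent evidence of its direction, whichever libraries are used. All 10 were called higher in footprints, by edgeR and by DESeq2, with log2 differences of 0.30 to 1.15 and a median of 0.61, where 8.53% of all genes were called higher. Between 9 and 10 were called when any 1 library was left out. In RNA 4 were higher and 0 lower, with a median of 0.32, beside 7.17% of all genes called higher, and DESeq2 called 2. Without untreated RNA replicate 1, 6 were called, and without pre-treated replicate 3 or untreated replicate 3, 2 were.

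SRL1, a mannoprotein gene, had 91.7 ± 8.67 CPM of footprints in pre-treated and 41.1 ± 9.62 CPM in untreated cultures (adjusted p = 4.04e-06). For DSE2, a daughter-cell protein with a role in cell separation, footprints were 278 ± 22.3 CPM in pre-treated and 147 ± 11.9 CPM in untreated cultures (adjusted p = 1.54e-07), and its RNA was also higher (log2 0.60, SE 0.11). SCW4, a glucanase-like cell wall protein gene, had 1513 ± 121 CPM of footprints after radicicol and 905 ± 52.2 CPM without it (adjusted p = 2.12e-07). For translational efficiency 0 of the 10 were called by edgeR or DESeq2, where edgeR called only 0.0180% of all genes. An unadjusted p below 0.05 was reached by 6 of the 10, beside 7.91% of all genes. The log2 changes were all above 0 with a median of 0.34, beside 0.005 for all genes. Without untreated RNA replicate 3, 1 of the 10 was called, where 21 genes were called in all.

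**Figure D5:**
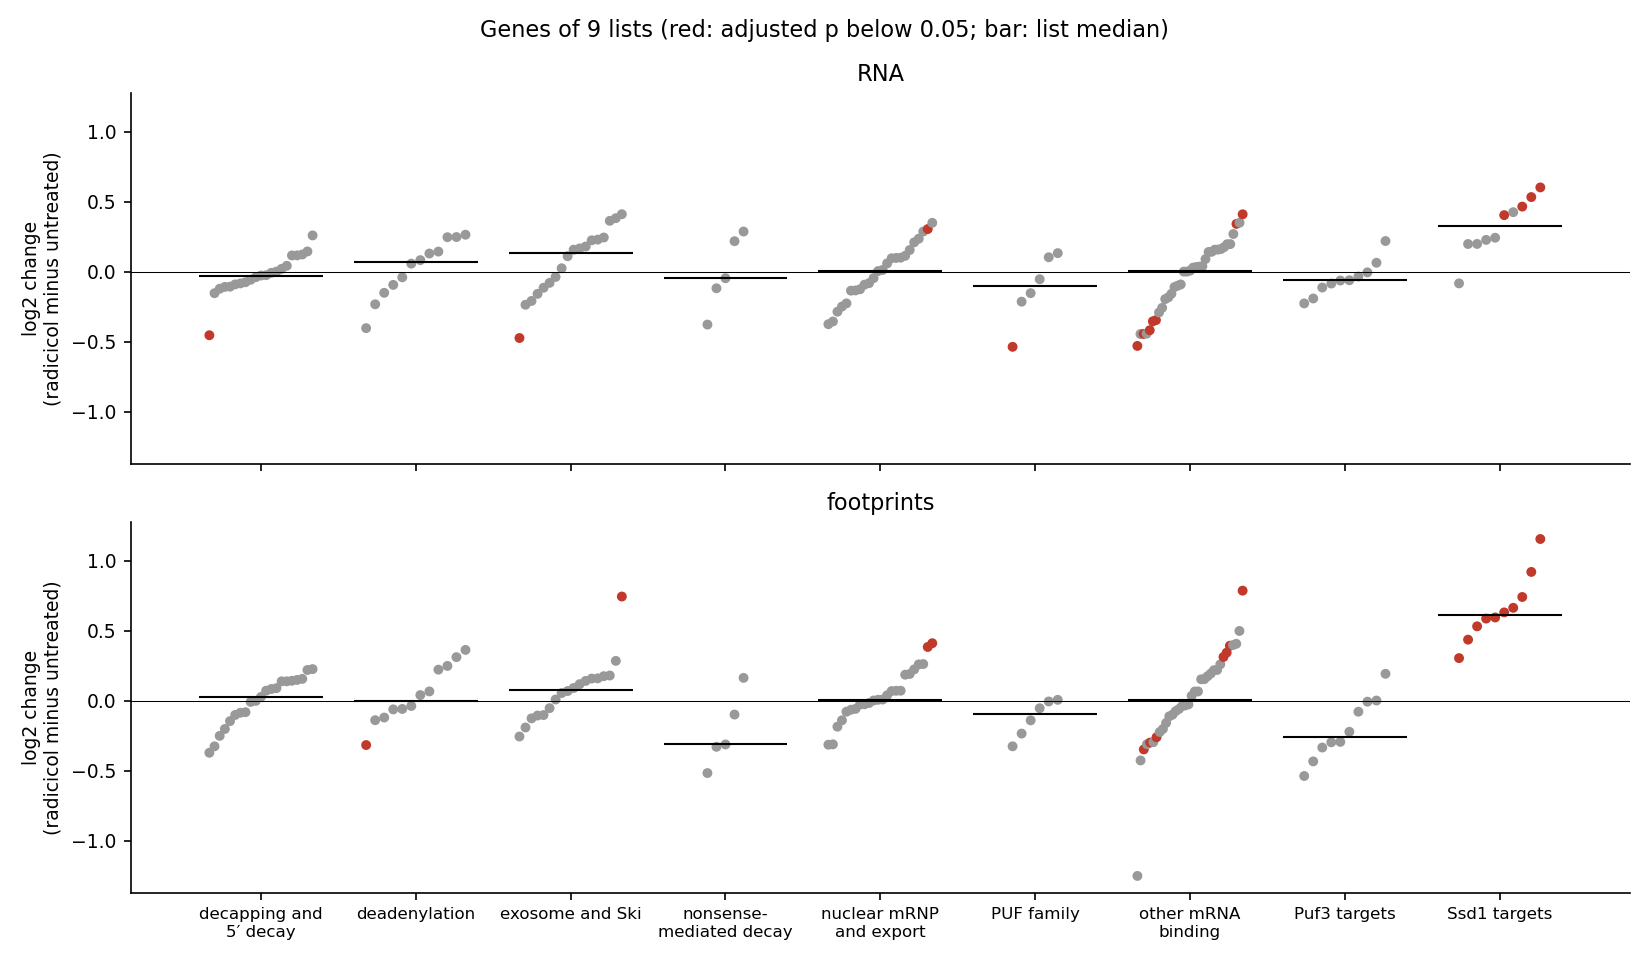
Log2 differences, radicicol minus untreated (vertical axis), of each gene in 9 lists of related genes, in RNA above and in footprints below. Red points have an adjusted p below 0.05 and bars mark list medians. The 10 Ssd1-bound messages are all above 0 in footprints, with a median of 0.61, and the other lists have medians between -0.31 (nonsense-mediated decay, in footprints) and 0.14 (exosome and Ski, in RNA). All lists were compiled with earlier results of these data known, so none is independent evidence of its direction.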

How the data were processed

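The rule for the members uses gene names alone, but the members and all gene lists were chosen with earlier results of these data known, so no list is independent evidence of its direction. Unnormalised read counts were deposited for each of the 12 libraries, and those of the per-library tables were used. The authors counted reads strand by strand for single exons with featureCounts 1.6.2, per the file headers, against the R64-1-1 annotation joined to a plasmid. The recorded command sets no option to count reads that match several places or several features. Whether this lowers the counts of the paralogs SLF1 and SRO9, which overlap no other feature, was not tested. The submitters' processing notes also list SAMtools 1.9, STAR 2.7.1a, cutadapt 1.18 and the sacCer3 build.

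Counts of 7557 features were summed to 7130 identifiers, and symbols were matched for 6048 from a RefSeq gene table. Tests used R 4.3.3 and edgeR 4.0.16 (filterByExpr with a minimum count of 10 and total of 15, TMM scaling, robust quasi-likelihood F test), with Benjamini-Hochberg adjustment over all genes tested and a threshold of 0.05. SE is the log2 change divided by the square root of F. All members passed the filter in every comparison. DESeq2 1.42.0 was an alternative. Translational efficiency levels added 0.5 counts and used TMM factors over 12 libraries. Total counts of 737922 to 2481336 make 3 counts worth between 1.21 and 4.07 CPM. Members are all named. From each list the up to 3 called genes with the largest change in each direction of a comparison were named, with the 2 genes most correlated with each called member. PAB1 was named in addition. Sequences were not used here.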

Additional observations from a re-analysis of the deposited data

How the results depend on the processing

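The number of members called in RNA, 1 as reported, was 2 with upper-quartile factors or with no filter on low counts, 0 with DESeq2 and 0 with the replicate number as a block, and between 0 and 1 with a library left out. In footprints it was 2 with no filter, and between 1 and 2 with a library left out. For translational efficiency it was 1 with a replicate block by culture, and 0 with every library or pair left out in turn. The number of all genes called ran from 407 to 743 in RNA and from 442 to 667 in footprints with a library left out, with both minima reached without pre-treated replicate 2. DESeq2 called 492 genes in RNA and 454 in footprints, where edgeR called 738 and 681. With upper-quartile factors 364 footprint genes were higher and 330 lower, against 434 and 247 as reported. For translational efficiency all genes called were 6 with no filter, 2 with the replicate block, 29 with the block by culture, and 0 to 21 with a library or pair left out, of which 21 came without untreated RNA replicate 3. No called value reversed its direction.

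The labels do not say whether numbers pair the treatments. Between treatments, deviations of libraries with the same number correlated at -0.02 to 0.09 in RNA and -0.17 to 0.06 in footprints. Such values cannot settle whether these libraries share a colony. RNA and footprint libraries of 1 number correlated at 0.17 to 0.31 after radicicol and -0.01 to 0.17 without it. Each library pair of 1 number after radicicol correlated above any pair of unlike numbers, and untreated number 2 did not. The labels do not say whether they share a culture, so the pairing is not settled. With the replicate block NGR1 in RNA had an adjusted p = 0.071. Depth limits SLF1 most. Motif and protein features were not run.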
